A study of Mus musculus with 10 samples.

Results

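Nicotinic acetylcholine receptor subunit genes were followed in mouse retinal ganglion cells (RGCs) before and after optic nerve crush (ONC). The 8 genes, Chrna3, Chrna4, Chrna6, Chrna7, Chrna5, Chrnb3, Chrnb2 and Chrnb4, were taken by symbol from all genes counted in 10 single-cell RNA-seq libraries, of which 14234 had enough counts to be tested for a difference after injury. They were selected on measured values, because the injury change of Chrna6 in these data was already known. Their injury differences are therefore given as a description, and a count of those past the threshold and 1 interaction value of Chrna6 are printed with nothing read from them. Tests are used for comparisons within a condition and for other genes, of which the lists of related genes were also chosen with earlier results known.

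The libraries hold RGCs, the neurons whose axons form the optic nerve, isolated by immunopanning on Thy1 from retinas of 12-week-old (P84) wild-type 129S1/SvImJ mice of both sexes. Uninjured RGCs were profiled in 6 libraries and RGCs taken 2 weeks after ONC, a crush that severs RGC axons, in 4 libraries. Each batch pooled 10 retinas, so a library is a pool and not an animal. The measured quantity is the number of unique molecular identifiers (UMIs) per gene and cell at the 3′ end of transcripts, and levels are given as CPM, the UMIs of a gene relative to a library total scaled by TMM factors, which correct for differences in composition.

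Total UMIs in uninjured libraries 1 to 6 were 2839693, 3423989, 12673923, 23180399, 5686605 and 4674981, from 98, 103, 363, 651, 267 and 201 cells. In injured libraries 1 to 4 the totals were 5934728, 4698799, 8860536 and 6275218, from 338, 273, 527 and 471 cells. Median UMIs per cell ranged from 20437 to 34337 in uninjured and from 11257 to 14695 in injured libraries, so the conditions did not overlap in depth per cell. At these totals the least deep library still gave 520 Chrna6 UMIs before injury, whereas the 4 injured libraries gave 19, 8, 10 and 4.

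Injured libraries 3 and 4 shared 421 cell barcodes, with counts as close as repeated sampling of the same molecules would give (median chi-square over its expectation 0.954). The next most alike pairs, with 0 barcodes shared, were libraries 5 with 6 (1.44), 1 with 2 (1.75) and 3 with 4 (1.81) before injury and libraries 1 with 2 after it (2.11), while all other pairs were at 3.46 or more. Libraries may thus be fewer independent samples than their number, and tests that count each of them may give p-values that are too small. Injured 3 and 4 were therefore averaged and counted as 1 sample, which leaves 6 uninjured and 3 injured samples and 1188 distinct injured barcodes among 1609. A single other barcode was shared, between uninjured 2 and 4. The injured libraries also fell into 2 kinds by genes that the sample descriptions do not account for. Transcripts of the reporter mCherry were present in 7.99% and 15.0% of cells of injured 1 and 2, in 86.0% and 84.3% of injured 3 and 4, and in 0% of cells of every uninjured library. Xist, the RNA that coats the inactive X chromosome in female cells, was detected in 62.1% and 67.4% of cells of injured 1 and 2 but in at most 0.569% of cells of any other library, although both sexes are given for all of them. Injury values of Chrna6 and Chrnb3 are accordingly also given without injured 1 and 2 and without injured 3 and 4. No batch that holds both conditions is named, so batch and condition cannot be told apart.

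Rbpms, Slc17a6, Sncg and Tubb3 had at least 1 UMI in 100% of cells of every library, but the authors identified RGCs by these same 4 genes, so this reflects their selection and is no separate check of identity. The summed level of the 8 RGC markers was 6080 to 7778 CPM in uninjured libraries, with Sncg or Nefl the most abundant, and 4122, 4616, 5229 and 5521 CPM in injured libraries, with Nefl or Tubb3 the most abundant. Pou4f1, a transcription factor of most RGCs, was detected before injury in 79.5% ± 4.07 of cells thinned to equal depth (SD, n = 6) and after it in 48.6% ± 7.34 (SD, n = 3). For Pou4f2 these shares were 31.4% ± 8.32 and 7.14% ± 0.267. Fewer cells of an RGC subtype and less RNA in each cell cannot be told apart where a level is summed over all cells of a library.

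Markers of other retinal cells were also followed, since some of them moved with injury. Of the 3 horizontal cell markers, 2 were detected in each library and Lhx1 was at 0 in all. Their summed level was 60.6 to 147.5 CPM in uninjured libraries and 12.6, 20.01, 21.3 and 24.2 CPM in injured libraries. The most abundant was Onecut1 in uninjured 1 and Calb1 in the other 9 libraries. Of the 6 markers of starburst amacrine cells, the cholinergic neurons of the retina, 1 to 5 were detected in uninjured libraries, summing to 8.56 to 18.5 CPM, with Megf11 the most abundant in each. In injured libraries 2 or 3 were detected, summing to 2.02, 4.68, 1.92 and 2.07 CPM, and Chat and Slc18a3 were at 0 in all 4. In cells without 3 or more markers of another class the injury log2 fold change was -7.09 for Chrna6, -0.90 for Chrna3 and -1.33 for Chrnb2, and the values of Chrnb3, Chrna4 and Chrna7 in such cells are given with those genes. The part of other cell types in the results was not tested further.

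Nicotinic receptors are cation channels opened by acetylcholine and built from 5 subunits around a pore. Alpha subunits such as α3, α4 and α6 form the agonist site together with a β2 or β4 subunit, α7 can form receptors by itself, and α5 and β3 occupy an accessory position that contributes to assembly and channel properties. In the retina acetylcholine is released by starburst amacrine cells, and receptors containing α6 and β3 are known from RGCs and from their axon terminals in the brain.

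Chrna6 and Chrnb3 lie side by side on chromosome 8 of the mouse build GRCm39, with no annotated gene between them. Chrnb3 spans chr8:27858739-27889758 on the plus strand and Chrna6 chr8:27893240-27903974 on the minus strand, so the genes face each other with their 3′ ends 3481 bp apart and their promoters at the outer ends. The promoter of Chrna6 is shown because this gene had the largest injury difference of the 8. The sequence is 300 bases, read from the genome from 250 before to 50 after the start of the canonical transcript in GENCODE vM39, at chr8:27903925-27904224 on the minus strand, written 5′ to 3′. Capitals mark CANNTG, the E-box.
Chrna6: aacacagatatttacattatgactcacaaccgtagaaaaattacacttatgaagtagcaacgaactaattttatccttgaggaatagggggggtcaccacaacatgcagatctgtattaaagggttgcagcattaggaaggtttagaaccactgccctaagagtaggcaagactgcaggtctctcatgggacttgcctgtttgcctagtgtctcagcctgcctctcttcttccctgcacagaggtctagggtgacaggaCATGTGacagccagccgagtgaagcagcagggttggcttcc
On both strands, CANNTG was present 1 time in the Chrna6 promoter, and 70.6% of all 21751 promoters of this length hold it. The other motifs searched had 0 matches in it. These were GGGCGG (GC box, in 42.5% of all promoters), TATAAA (13.2%), TAATTA (homeodomain, 5.51%) and the palindromic motif of EBF factors (1.05%). G and C made up 47.3% of the Chrna6 sequence, against a median of 54.3% over all promoters. A match is a description of the letters, and 3′ counts do not show which start was used.

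A further cluster holds Chrna5 (chr9:54888164-54918184, plus strand), Chrna3 (chr9:54917395-54933941, minus strand) and Chrnb4 (chr9:54935438-54956076, minus strand). The 3′ ends of Chrna5 and Chrna3 overlap by 790 bp on opposite strands, at the end of the transcripts that these libraries sequence. The strand setting of the counting is not given in the sources used here, so the split of counts between Chrna5 and Chrna3 is uncertain. Chrna4 (chr2:180660173-180685339), Chrnb2 (chr3:89653502-89671953) and Chrna7 (chr7:62731494-62862322) lie alone on the minus strand of their chromosomes.

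Among the agonist-binding subunits, Chrna6, which encodes α6, ran from 175 CPM in the lowest uninjured library through a median of 203 to 216 in the highest, with a mean of 201 ± 15.4 (SD, n = 6). After ONC the 3 samples had 3.33, 1.80 and 0.939 CPM, a mean of 2.02 ± 1.21 (SD, n = 3). The groups were far apart, with each injured sample below every uninjured library and injured 1 the highest of the injured samples. The fitted log2 fold change was -6.67 (SE 0.30), a ratio of means of 99.4. It was -6.23 without injured 3 and 4, -7.71 without injured 1 and 2, and -7.27 without injured 1 alone. The 3 injured samples held 34 Chrna6 UMIs against 11278 in uninjured libraries, and why the value moved with the libraries left out was not tested.

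Chrna4, which encodes the α4 subunit of the main high-affinity receptor of the brain, ran from 4.04 CPM through a median of 9.90 to 15.4 in uninjured libraries and was at 1.40, 1.12 and 0.939 CPM after ONC. Uninjured 1 was the lowest of its group, and the groups did not overlap. The log2 fold change was -3.16 (SE 0.41), with 556 uninjured and 20 injured UMIs behind it. In cells without 3 or more markers of another retinal class it was -3.80.

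Chrna3, which encodes α3, the agonist-binding subunit of ganglionic receptors, ran from 12.3 CPM through a median of 18.7 to 33.1 in uninjured libraries. After ONC it was at 11.4, 7.87 and 8.72 CPM. Injured 1 lay just under uninjured 2, and uninjured 6 was well above its group. The log2 fold change was -1.07 (SE 0.29), with the overlap with Chrna5 as stated.

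Chrna7, which encodes α7, ran from 12.5 CPM through a median of 19.8 to 22.1 in uninjured libraries and was at 12.1, 16.4 and 14.8 CPM after ONC. Uninjured 5 and 6 lay among the injured samples, so the groups overlapped. The log2 fold change was -0.34 (SE 0.21) over all cells and -0.69 in cells without 3 or more markers of another retinal class.

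Of the accessory subunits, Chrnb3, which encodes β3, ran from 199 CPM through a median of 217 to 254 in uninjured libraries, with a mean of 223 ± 20.5 (SD, n = 6). After ONC it was at 11.2, 12.4 and 7.91 CPM, a mean of 10.5 ± 2.31 (SD, n = 3). Every injured sample was again far below every uninjured library, but unlike Chrna6 the 3 injured samples were close to each other in proportion. The log2 fold change was -4.42 (SE 0.19), -4.22 without injured 3 and 4 and -4.80 without injured 1 and 2, and -4.81 in cells without 3 or more markers of another retinal class. Chrna5, which encodes α5, was at 0.184 to 0.560 CPM before and 0.175, 0.225 and 0.268 CPM after injury, with 19 and 4 UMIs in all. These levels overlap, and Chrna5 did not pass the filter on low counts.

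Of the structural β subunits, Chrnb2, which encodes β2, ran from 24.1 CPM through a median of 32.7 to 44.4 in uninjured libraries and was at 15.3, 15.1 and 11.9 CPM after ONC. The groups did not overlap, with uninjured 5 and 6 the highest. The log2 fold change was -1.28 (SE 0.20). Chrnb4, which encodes β4, was at 0.280 to 0.906 CPM before and 0.702, 0.449 and 0 CPM after injury, from 30 and 6 UMIs, and did not pass the filter either. In all, 6 of the 8 subunit genes passed the filter on low counts. Of these, 5 had an adjusted p under 0.05 as lower after injury, as did 22.5% of the 14234 genes tested, while 21.3% were higher. Since the genes were chosen on this contrast, nothing is read from that count.

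**Figure D1:**
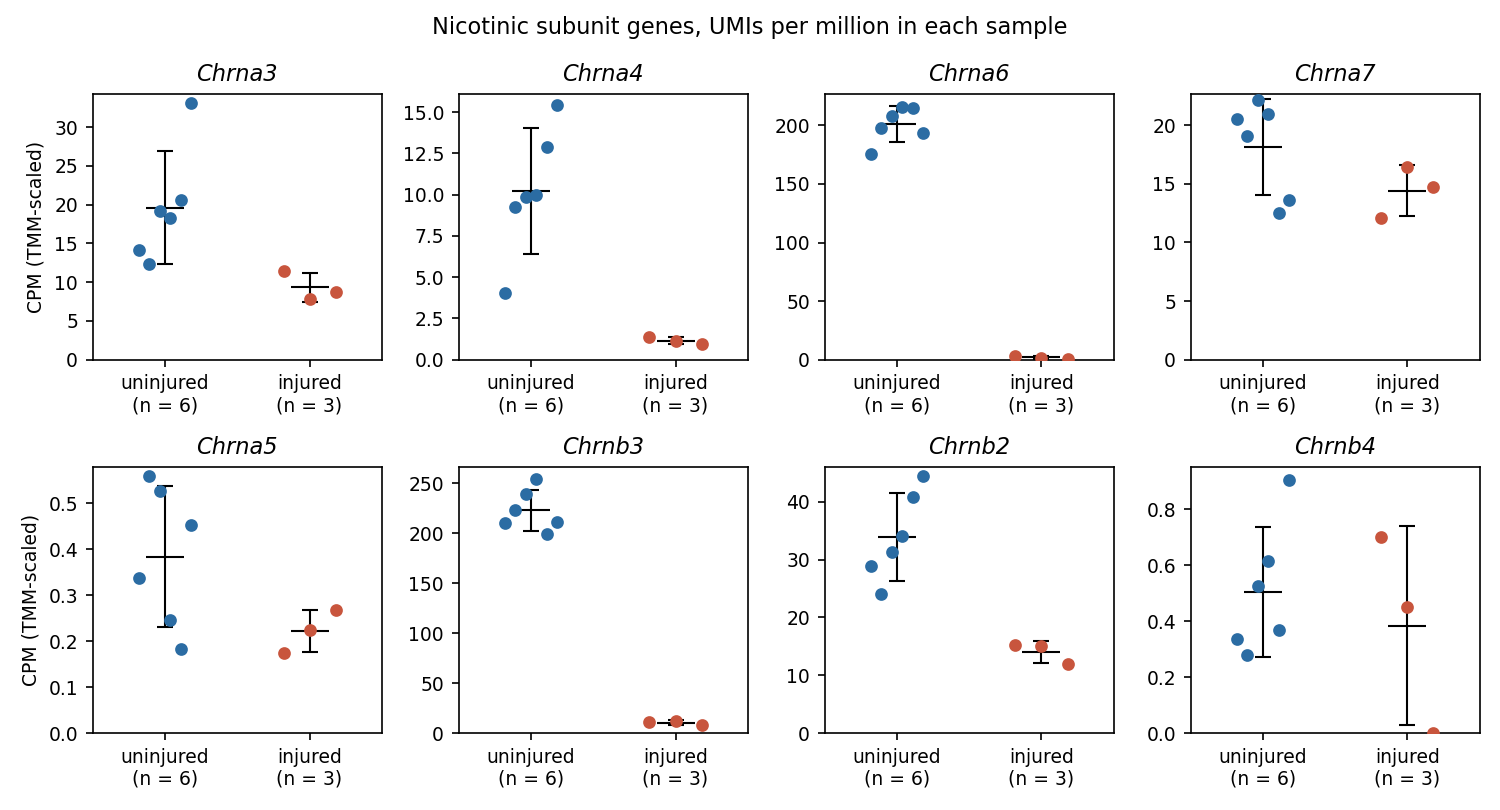
CPM on TMM-scaled totals of the 8 subunit genes in each of the 6 uninjured and 3 injured samples, with injured 3 and 4 averaged, and bars for mean and SD. Chrna6 and Chrnb3 lie at 175 to 216 and 199 to 254 CPM before injury and at no more than 3.33 and 12.4 CPM after it, while Chrna7, Chrna5 and Chrnb4 overlap between the groups.

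To compare shares of cells at equal depth, each cell was thinned at random to 8000 UMIs, which left 1654 of 1683 uninjured and 1376 of 1609 injured cells. A Chrna6 UMI was present before injury in 69.5% ± 2.42 of thinned cells (SD, n = 6) and after it in 1.59% ± 1.02 (SD, n = 3). With all UMIs the shares were 83.8% and 2.41%, at the unequal depths given above. In single injured libraries the thinned Chrna6 share was 2.61% in injured 1 (exact binomial 95% interval 1.14 to 5.09), 1.59% in injured 2 (0.436 to 4.03), 0.870% in injured 3 (0.237 to 2.21) and 0.279% in injured 4 (0.00705 to 1.54), intervals that cover counting error only.

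Free RNA in the cell suspension can place UMIs in cells that do not express a gene, and rod genes give a gauge of this in RGCs. Among thinned cells Sag was detected in 2.68% before and 1.39% after injury and Pdc in 0.362% and 0.398%. Unthinned, Sag was in 6.63% and 2.63% of cells, at median depths of 20437 to 34337 and 11257 to 14695 UMIs. In injured libraries 1 to 4 the Sag shares were 0.654%, 2.39%, 0.870% and 1.39%, so Chrna6 was above Sag in injured 1, equal to it in injured 3 and below it in injured 2 and 4. From shares this small free RNA and expression of Chrna6 cannot be told apart. The thinned shares of Chrna5 (0.494% and 0.145%) and Chrnb4 (0.227% and 0.569%) were at that level in both conditions.

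The remaining subunit genes were on average above the gauge in uninjured cells, and all but Chrna4 did so after injury. The Chrnb3 share was 74.7% ± 5.39 before and 6.15% ± 1.16 after injury (91.0% and 10.9% with all UMIs). For Chrnb2 it was 24.2% ± 5.87 and 10.0% ± 1.17 (57.0% and 18.6% with all UMIs). Chrna7 had 12.7% ± 3.35 and 7.73% ± 1.70 (29.7% and 13.3%). Chrna3 had 12.2% ± 2.77 and 7.51% ± 0.575 (25.5% and 11.7%). For Chrna4 it was 6.75% ± 3.37 and 0.552% ± 0.135 (17.6% and 1.68%), the injured share again at the level of free RNA. Cells with at least 2 Chrna6 UMIs made up 45.9% ± 3.51 before and 0.288% ± 0.134 after injury, and those with at least 2 Chrnb3 UMIs 51.6% ± 6.78 and 1.19% ± 0.466.

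**Figure D2:**
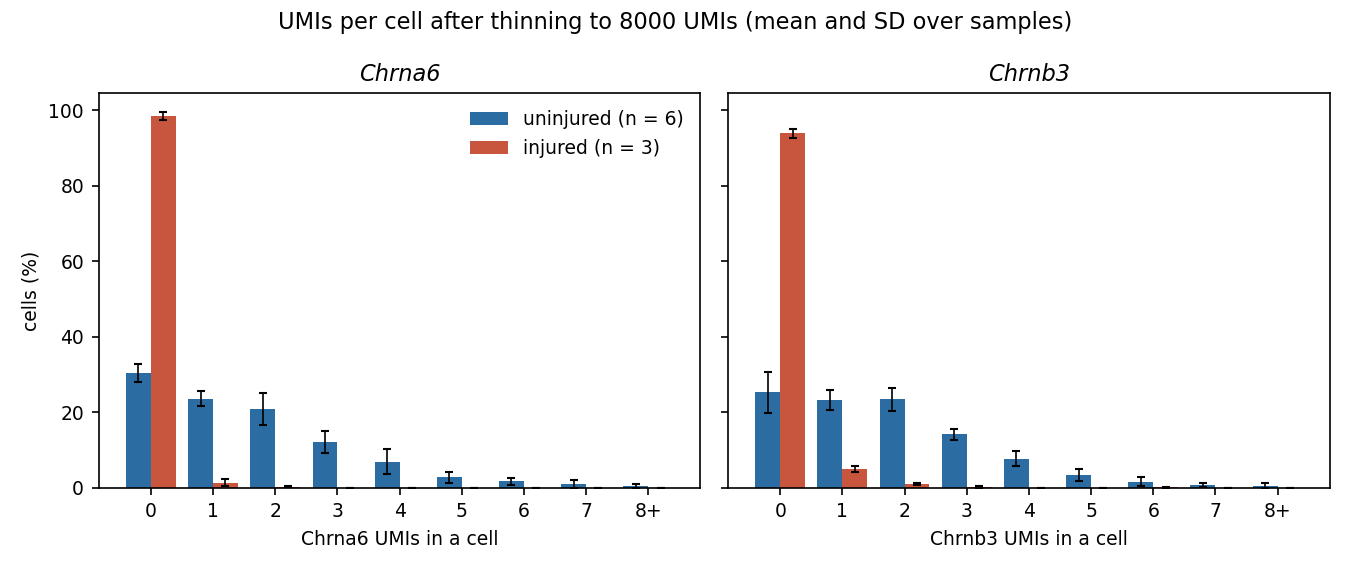
Percentage of cells with each number of Chrna6 (left) or Chrnb3 (right) UMIs after thinning to 8000 UMIs per cell, as mean and SD over 6 uninjured and 3 injured samples. Uninjured cells spread over several UMIs, whereas in each injured library at least 97.4% of cells hold no Chrna6 UMI and at least 93.1% no Chrnb3 UMI.

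Most uninjured cells carried transcripts of several subunits. After thinning, a cell held UMIs of 2.01 ± 0.113 of the 8 genes before injury (SD, n = 6) and of 0.343 ± 0.0414 after it (SD, n = 3). Cells with no UMI of any of the 8 made up 7.83% ± 3.16 before and 71.6% ± 2.96 after injury, and cells with UMIs of 3 or more made up 30.4% ± 4.15 and 0.759% ± 0.723. With all UMIs, cells with none made up 1.64% and 56.3%.

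Chrna6 and Chrnb3 shared 57.2% ± 5.18 of uninjured cells, where the product of their shares was 52.0%. Chrnb3 was detected in 82.2% ± 6.40 of Chrna6-positive and 57.6% ± 10.7 of Chrna6-negative uninjured cells, the former share higher in each of the 6 libraries. Chrna6, Chrnb3 and Chrnb2 were found together in 14.8% ± 3.97 of uninjured cells, and these 3 with Chrna3 in 2.45% ± 1.02. After injury Chrna6 and Chrnb3 were found together in 0.470% ± 0.161 of cells. Chrna6 was detected in 81.6% ± 5.04 of Chrna3-positive and 67.9% ± 2.73 of Chrna3-negative uninjured cells, and in 76.6% ± 6.67 of Chrna4-positive and 69.0% ± 2.78 of Chrna4-negative cells. For Chrna7 the 2 Chrna6 shares were 69.4% and 69.5%, and for Chrnb2 71.2% and 69.1%. At 8000 UMIs per cell a transcript can be missed, so a cell with no UMI of a gene need not lack it.

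To ask which genes differ between RGCs with and without Chrna6, thinned uninjured cells with at least 1 Chrna6 UMI (1161 cells) were compared with the remaining 493 cells within each of the 6 libraries. Chrna6 itself was left out, and 8810 genes were tested with edgeR's quasi-likelihood test with library as a block. P-values here and elsewhere measure the spread between these libraries, which are pools that may differ technically as well as biologically. Chrnb3 was higher in Chrna6-positive cells by a log2 fold change of 0.68 (SE 0.10, adjusted p = 0.000109, higher in 6 of 6 libraries). Chrna3 was higher by 0.74 (SE 0.21, adjusted p = 0.0384, higher in 5 of 6 libraries). These were 2 of the 4 subunit genes tested, against 1.95% of all genes higher and 1.6% lower. Chrnb2 (0.23, SE 0.15, adjusted p = 0.58) and Chrna7 (0.20, SE 0.21, adjusted p = 0.795) did not pass, and Chrna4, Chrna5 and Chrnb4 had too few counts to be tested. The Chrna3 call was lost without uninjured 1, 3, 4, 5 or 6 in turn (adjusted p 0.0503, 0.111, 0.201, 0.142 and 0.068) and with DESeq2 (0.371). The number of genes called, 313, was 173 without uninjured 3 and 181 without uninjured 4, and 15 without the library block, where Chrnb3 no longer passed (adjusted p = 0.214).

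The smallest log2 fold change among called genes was that of Opn4. This gene, which encodes the photopigment melanopsin of intrinsically photosensitive RGCs, averaged 97.4 ± 56.6 CPM in Chrna6-negative cells and was lower in Chrna6-positive cells by a log2 fold change of -6.07 (SE 0.28, adjusted p = 2.02e-18, lower in 6 of 6 libraries). Eomes, a transcription factor of these cells, was lower by -2.90 (SE 0.28, adjusted p = 2.05e-05). Foxp2, a transcription factor that marks other RGC types, averaged 226 ± 62.8 CPM in negative cells and was lower in positive cells by -1.96 (SE 0.10, adjusted p = 1.39e-16). Spon1, a secreted matrix protein, and Bnc2, a zinc finger protein, had log2 fold changes of -2.05 and -1.76, and all 5 of these genes were lower in 6 of 6 libraries.

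In the other direction, the largest difference was that of Tfap2d, a transcription factor of some RGC types, at a log2 fold change of 1.46 (SE 0.18, adjusted p = 1.42e-06, higher in 6 of 6 libraries). The next were Sntg2 (1.25), Syt2 (1.22), Sox6 (1.22), Myo5b (1.20), Barhl2 (1.17), 9130024F11Rik (1.16), Hpgd (1.08), Cdh11 (1.07) and Evc2 (1.03). Sox6 and Myo5b were higher in 5 of 6 libraries and the rest in 6 of 6. Without uninjured 4, Sox6 (adjusted p = 0.0581) and Evc2 (adjusted p = 0.0553) no longer passed. Counting every alternative run, Sntg2, Sox6 and Evc2 lost their call in 2. Tfap2d, Syt2, Myo5b, Barhl2, 9130024F11Rik and Hpgd lost theirs in 1. Cartpt, a peptide of direction-selective RGCs, did not pass (1.05, SE 0.34, adjusted p = 0.269) although it was higher in 6 of 6 libraries.

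**Figure D3:**
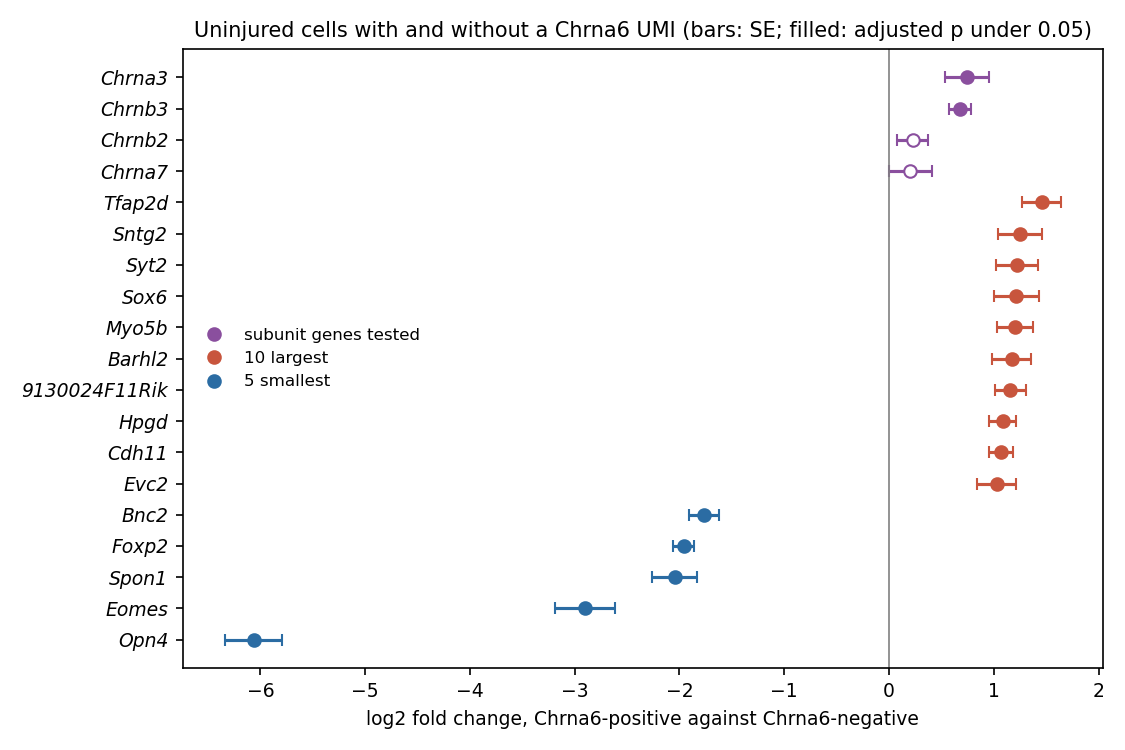
Log2 fold change between Chrna6-positive and Chrna6-negative thinned uninjured cells over 6 libraries, with SE bars, for the 4 subunit genes tested and the 10 largest and 5 smallest values among called genes; filled points have an adjusted p under 0.05. Opn4 lies farthest to the left at -6.07, and Chrnb3 and Chrna3 are the filled subunit genes.

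The genes most like Chrna6 across uninjured cells were found from Pearson correlations of log-scaled thinned counts within each library, averaged over the 6 libraries, among 8734 genes and 1654 cells. Pcp4, which encodes a calmodulin-binding peptide, came first with a mean r of 0.322, followed by Chrnb3 with 0.308 and Galntl6 with 0.302. Between Chrna6-positive and Chrna6-negative cells of the same libraries, Pcp4 (0.83, SE 0.26, adjusted p = 0.258) and Galntl6 (0.73, SE 0.16, adjusted p = 0.0651) did not pass, although each was higher in 6 of 6 libraries. Next in mean r were Vsnl1 (0.256), Lrrc4c (0.246), Mgll (0.246), Sema3e (0.224), Hpgd (0.221), Slc17a6 (0.213) and Ntng1 (0.210). Each of the 10 had a positive r in 6 of 6 libraries, Chrnb3 from 0.194 to 0.520, and 9 of the 10 were also in the first 10 by Spearman correlation. Chrna3 had a mean r of 0.0723, Chrnb2 of 0.0464 and Chrna7 of 0.0105, against a median of -0.000685 over all genes. The most negative were Bnc2 (-0.284) and Spon1 (-0.276). The cells of a library share its pool and preparation, and in counts this sparse the small values are no finding.

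The subunit genes were next compared between cells with and without a UMI of an RGC subtype marker, within thinned uninjured cells. Such classes are marker-positive cells and not types, they overlap, and of 10 markers 9 could be fitted, since Spp1 had enough positive cells in only 1 library. Chrna6 averaged 30.5 ± 18.1 CPM in Opn4-positive cells (SD, n = 3 libraries), 124.5 ± 46.9 in Eomes-positive (n = 5) and 132.5 ± 32.8 in Foxp2-positive cells (n = 6). It averaged 178.6 ± 53.0 in Zic1-positive (n = 4), 225.8 ± 23.0 in Cartpt-positive (n = 6), 254 ± 67.0 in Neurod2-positive (n = 4), 262 ± 13.5 in Tfap2d-positive (n = 4) and 336 ± 31.8 in Tbr1-positive cells (n = 4). In this order Opn4 at the bottom and Tbr1 at the top differed from their neighbours by more than the SD of either class, while the order of the classes between them is not read further. Of 47 pairs of marker and subunit gene tested, 7 were higher in marker-positive cells, against 3.2% of all gene and marker pairs, and 7 were lower, against 3.57%.

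Chrna6 was lower in Opn4-positive than Opn4-negative cells by a log2 fold change of -2.97 (SE 0.38, adjusted p = 1.42e-12, lower in 3 of 3 libraries), from 37 positive cells. It was also lower in Foxp2-positive (-0.81, SE 0.11, adjusted p = 4.83e-07, 6 of 6 libraries) and Eomes-positive cells (-0.71, SE 0.18, adjusted p = 0.0111, 5 of 5). It was higher in Tbr1-positive (0.70, SE 0.16, adjusted p = 0.000304, 4 of 4) and Tfap2d-positive cells (0.41, SE 0.09, adjusted p = 0.00049, 4 of 4). A smaller difference was found in Cartpt-positive cells (0.29, SE 0.09, adjusted p = 0.0273, 6 of 6). Some calls were lost without a library: Cartpt without uninjured 1, 3, 4 or 5 (adjusted p 0.0706, 0.0565, 0.0697 and 0.108) and Eomes without uninjured 5 (0.0735). Over all alternatives run, counting these, the Chrna6 call was lost in 9 for Cartpt, 6 for Eomes and 1 each for Tbr1 and Tfap2d. Neurod2-positive (0.35, adjusted p = 0.0803, 3 of 4) and Zic1-positive cells (-0.19, adjusted p = 0.622) did not pass. Opn4, Eomes, Foxp2 and Tfap2d were themselves called in the Chrna6 contrast of the same uninjured cells. The Chrna6 differences in their classes are that association turned around and no separate support for it.

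Chrnb3 did not follow Chrna6 in every class. It was lower in Opn4-positive (-2.08, SE 0.32, adjusted p = 9e-09, 3 of 3 libraries) and Eomes-positive cells (-1.02, SE 0.18, adjusted p = 0.000357, 5 of 5), and higher in Tbr1-positive cells (0.62, SE 0.15, adjusted p = 0.00179, 4 of 4). In Foxp2-positive cells, where Chrna6 was lower, Chrnb3 averaged 229.8 ± 45.4 CPM against 224.5 ± 31.6 in Foxp2-negative cells (log2 fold change -0.00, SE 0.10, adjusted p = 0.999). In Neurod2-positive cells Chrnb3 was lower (-0.58, SE 0.14, adjusted p = 0.00115, 4 of 4), while Chrna6 was not. The difference between the 2 genes within a class was not tested. Without uninjured 4 the Neurod2 call of Chrnb3 was lost (adjusted p = 0.0578), and without uninjured 3 its Tbr1 call (0.05). Over all alternatives run, counting these, each of these calls was lost in 3.

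For Chrna3 the classes called were Foxp2, Cartpt and Tfap2d, each in the direction of Chrna6. Chrna3 was at 1.91 ± 2.42 CPM in Foxp2-positive cells and 24.5 ± 5.90 in Foxp2-negative cells (log2 fold change -3.15, SE 0.38, adjusted p = 7.75e-09, lower in 6 of 6 libraries). It was higher in Cartpt-positive (27.8 ± 6.51 against 11.4 ± 3.71 CPM, 1.35, SE 0.20, adjusted p = 7.19e-07, 6 of 6) and Tfap2d-positive cells (44.0 ± 8.05 against 18.6 ± 2.47 CPM, 1.31, SE 0.21, adjusted p = 4.74e-07, 4 of 4). The Tfap2d call of Chrna3 was lost in 1 of the alternatives run. For Chrna4, Chrna7 and Chrnb2 the pair with the lowest adjusted p was Chrna7 in Neurod2-positive cells (-1.42, SE 0.49, adjusted p = 0.052, lower in 4 of 4 libraries). Chrna5 and Chrnb4 had too few counts in every class. Among pairs called, the number higher was 4 in place of 7 without uninjured 3, and the number lower 4 in place of 7 without uninjured 4, with 8 in place of 9 markers fitted in either case.

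**Figure D4:**
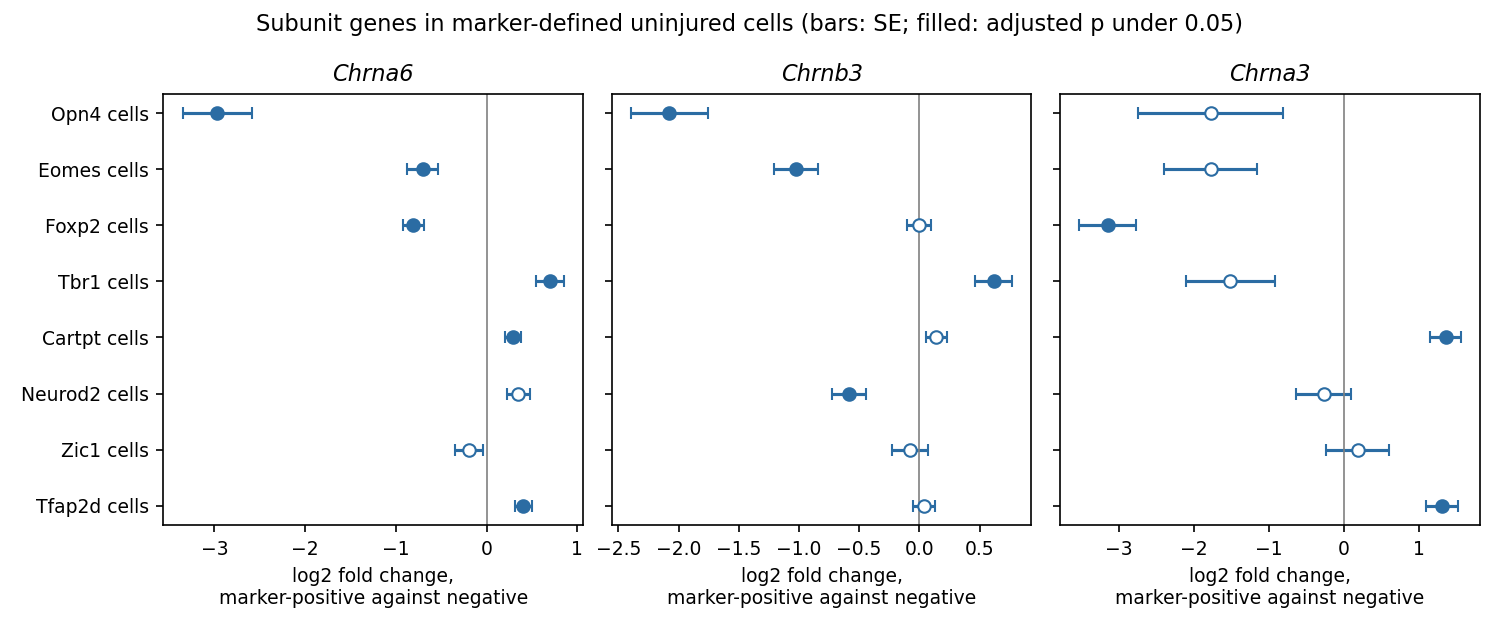
Log2 fold change of Chrna6, Chrnb3 and Chrna3 between marker-positive and marker-negative thinned uninjured cells for 8 RGC subtype markers, with SE bars; filled points have an adjusted p under 0.05. The Opn4 class is lowest for Chrna6 and Chrnb3, and the Foxp2 class for Chrna3.

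Within marker-positive cells of injured samples Chrna6 was low in each class that could be measured. It averaged 11.5 ± 5.20 CPM in Cartpt-positive, 4.30 ± 4.31 in Tfap2d-positive and 6.16 ± 5.88 in Foxp2-positive injured cells (SD, n = 3 each). In Opn4-positive injured cells it was 0 in all 3 samples. Chrnb3 averaged 22.4 ± 10.0, 23.9 ± 12.9 and 19.6 ± 7.07 CPM in the same 3 classes, and 3.61 ± 3.24 CPM in Opn4-positive cells. Chrna3 differed in pattern, with 28.3 ± 17.3 CPM in Cartpt-positive injured cells against 27.8 ± 6.51 before injury, and 10.3 ± 2.56 in Tfap2d-positive injured cells against 44.0 ± 8.05 before injury. The Cartpt-positive class itself went from 54.2% ± 3.37 of thinned cells to 7.79% ± 1.19, so it, like the other classes, need not hold the same kinds of cells in both conditions. Fewer such cells and less Cartpt RNA per cell cannot be told apart. These values carry no test, and their CPM is not scaled by TMM factors.

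Too few injured cells carried Chrna6 for the same comparison after injury. Counting all UMIs, 13, 6, 9 and 3 cells of injured libraries 1 to 4 had a Chrna6 UMI, of which 5, 2, 6 and 1 also had a Chrnb3 UMI. Chrnb3 was therefore used in its place, a choice made after the data were seen. At least 1 Chrnb3 UMI was found in 21, 17, 25 and 15 thinned cells of injured libraries 1 to 4.

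In uninjured cells Chrna6 was higher in Chrnb3-positive cells (233.6 ± 25.2 against 119 ± 34.5 CPM, log2 fold change 0.85, SE 0.12, adjusted p = 3.56e-05, higher in 6 of 6 libraries). It was the only subunit gene called, where 2.56% of 8056 genes were higher and 4.33% lower. This uninjured difference is the association of Chrna6 with Chrnb3 given above, in the same cells, and is no separate support for it. In injured cells Chrna6 was at 12.9 ± 1.54 CPM in Chrnb3-positive and 1.66 ± 1.38 CPM in Chrnb3-negative cells (2.85, SE 0.75, adjusted p = 0.0221, higher in 3 of 3 samples). That difference rests on 2, 1, 2 and 1 thinned cells of injured libraries 1 to 4 with UMIs of both genes, and injured Chrna6 shares were not above the free-RNA gauge in 3 of the 4 libraries. In this contrast 2.85% of 9677 genes were higher and 1.78% lower. The interaction value of Chrna6 between conditions was 1.96 (SE 0.93, adjusted p = 0.41), from which nothing is read. The injured Chrnb3-positive cells also differed in genes other than receptor subunits. Adarb2 was at 308 ± 121 CPM in them and 52.6 ± 25.5 CPM in the negative cells (2.52, SE 0.18, adjusted p = 9.61e-11, higher in 3 of 3 samples). Robo1, an axon guidance receptor, was at 367 ± 37.1 against 80.3 ± 26.5 CPM (2.19, SE 0.20, adjusted p = 1.8e-06, 3 of 3). The growth-associated gene Gap43 was lower, at 1594 ± 331 against 2484 ± 128 CPM (-0.71, SE 0.12, adjusted p = 0.000243, lower in 3 of 3 samples). Gap43 was also lower in uninjured Chrnb3-positive cells (-0.27, SE 0.07, adjusted p = 0.0119, 6 of 6 libraries), with an interaction of -0.48 (SE 0.12, adjusted p = 0.0218). Rbpms was at 402 ± 80.3 and 308 ± 26.8 CPM in injured cells and did not pass (0.32, SE 0.14, adjusted p = 0.255, higher in 3 of 3 samples). In uninjured Chrnb3-positive cells Rbpms was higher by 0.22 (SE 0.07, adjusted p = 0.0281, 6 of 6 libraries). Its interaction did not pass (0.05, SE 0.15, adjusted p = 0.956).

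For 183 genes the Chrnb3 contrast differed between conditions, with 1.37% of 9610 genes higher and 0.531% lower. At 5000 UMIs per cell 266 genes differed, and those lower went from 51 to 132 while those higher went from 132 to 134, so the balance of directions is not kept. Adarb2 and Robo1 had log2 fold changes of opposite sign in uninjured cells, where Adarb2 was lower in Chrnb3-positive cells in 4 of 6 libraries and higher in 2 (-0.94, SE 0.17, adjusted p = 0.00018) and Robo1 lower in 6 of 6 (-0.61, SE 0.10, adjusted p = 2.61e-05), and the interaction was 3.45 (SE 0.26, adjusted p = 8.21e-13) and 2.76 (SE 0.23, adjusted p = 5.28e-08). Prkg1, a cGMP-dependent kinase, was at 79.4 ± 30.8 against 138 ± 55.8 CPM in uninjured and 528 ± 91.6 against 173 ± 39.9 CPM in injured cells (interaction 2.33, SE 0.18, adjusted p = 6.97e-14). These genes were named after their values were seen. In injured Chrnb3-positive cells the subtype marker Foxp2 was higher (1.15, adjusted p = 0.00921), Opn4 lower (-2.64, adjusted p = 0.0273) and Cartpt not called (adjusted p = 0.306). In uninjured cells Opn4 was lower (-6.34, adjusted p = 2.9e-10), and Foxp2 and Cartpt did not pass (adjusted p = 0.347 and 0.718). Interactions of Foxp2, Opn4 and Cartpt did not pass (adjusted p = 0.177, 0.441 and 0.072). The Chrnb3 classes need not hold the same kinds of cells in both conditions.

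Outside the 8 subunit genes, 38 genes related to nicotinic receptors were examined in the injury contrast as 4 lists. Of these 19 passed the filter on low counts, with 12 lower and 3 higher after injury by edgeR, where 22.5% of all genes tested were lower and 21.3% higher, and a median log2 fold change of -0.85, against -0.03 over all 14234 genes tested. The other 8 nicotinic subunit genes (Chrna1, Chrna2, Chrna9, Chrna10, Chrnb1, Chrnd, Chrne and Chrng) reached at most 1.69 CPM in any sample, and none entered the test. Of 17 chaperones and modulators 14 were tested, with 11 lower and 2 higher. The list of acetylcholine enzymes and transporters had 3 of 8 genes tested, with 1 higher and 1 lower, and the muscarinic receptors 2 of 5. The lists were chosen with earlier results of these data known. Nothing is therefore read from their counts against all genes, and the adjusted p-values of their genes are no independent support.

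Several members of the Ly6 family, small proteins that bind nicotinic receptors and tune them, fell. Lypd1 went from 15.2 to 37.4 CPM in uninjured libraries (median 25.5) to 0.175, 1.12 and 0.939 CPM after injury, with no overlap (log2 fold change -4.99, SE 0.47, adjusted p = 6.19e-06). Ly6h ran from 196 to 477 CPM (median 358) before and was at 18.9, 23.1 and 15.8 CPM after injury (-4.16, SE 0.37, adjusted p = 4.42e-06). Each injured sample of either gene was below all 6 uninjured libraries. Lypd6 (-2.40, SE 0.19, adjusted p = 1.44e-06), Lypd6b (-1.91, SE 0.16, adjusted p = 2.76e-06) and Lynx1 (-1.39, SE 0.19, adjusted p = 0.000122) were lower in 3 of 3 injured samples than in any uninjured library. Ly6e went the other way, from 45.3 to 71.8 CPM (median 53.0) to 235, 247 and 112 CPM (1.83, SE 0.23, adjusted p = 6.07e-05), with injured 1 and 2 well above the average of injured 3 and 4.

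Among factors of receptor assembly and trafficking, Vsnl1, a calcium sensor that binds the α4 subunit, ran from 612 to 939 CPM before and was at 121, 145 and 91.3 CPM after injury (-2.63, SE 0.23, adjusted p = 3.47e-06). Vsnl1 was also among the genes most like Chrna6 in uninjured cells. Rapsn, the scaffold of muscle receptors (-1.91, SE 0.50, adjusted p = 0.00873), the chaperone Canx (-0.85, SE 0.14, adjusted p = 0.00035), Tmem35a, the chaperone NACHO (-0.76, SE 0.19, adjusted p = 0.00679), and Ubxn2a (-0.63, SE 0.13, adjusted p = 0.00268) were lower, each with no overlap between the groups. Ric3, a chaperone of α7, was lower by little (-0.35, SE 0.13, adjusted p = 0.045), with injured 3 and 4 at 81.9 CPM inside the uninjured range of 80.5 to 98.0. That call was lost without uninjured 1, 2, 3, 4 or 5 or injured 1, 2 or 3 in turn (adjusted p 0.0579, 0.101, 0.0881, 0.0831, 0.0555, 0.176, 0.199 and 0.0638). Ubqln1 was higher (0.41, SE 0.11, adjusted p = 0.0121), but not on library totals without TMM factors (adjusted p = 0.0644). With the alike libraries summed as 5 batches, Ubqln1 (adjusted p = 0.151), Tmem35a (0.0602) and Ric3 (0.318) no longer passed, which left 10 of the related genes lower and 2 higher. Ywhah did not pass (0.15, SE 0.29, adjusted p = 0.706). With injured 1 and 2 both left out, 7 of the 38 genes were lower and 1 higher, and Ric3, Tmem35a, Canx, Ubqln1, Ubxn2a, Rapsn and Slc44a1 no longer passed.

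Of the genes that make, move and break down acetylcholine, Ache, the enzyme that ends its action, fell from 69.4 to 120 CPM (median 73.8) to 31.6, 35.7 and 28.2 CPM (-1.45, SE 0.22, adjusted p = 0.000256), below every uninjured library. Slc44a1, a choline transporter, rose from 25.6 to 45.8 CPM (median 35.9) to 64.0, 56.4 and 65.4 CPM (0.78, SE 0.17, adjusted p = 0.00341), above every uninjured library. Prima1, which anchors acetylcholinesterase in the membrane, did not pass (-1.21, SE 0.46, adjusted p = 0.0526). Chat and Slc18a3, which define cholinergic neurons, were at 0 in the 3 injured samples and reached at most 0.368 and 1.10 CPM in uninjured libraries. The muscarinic receptors Chrm2 (-0.13, SE 0.27, adjusted p = 0.714) and Chrm3 (0.38, SE 0.22, adjusted p = 0.186) did not pass, and their levels overlapped between groups. In the comparison of uninjured Chrna6-positive with Chrna6-negative cells, Chrm2 and Chrm3 were higher in the former (0.96 and 0.87, adjusted p = 0.00947 and 1.21e-05, each in 5 of 6 libraries), as were Lypd6 (0.63, adjusted p = 0.00422, 6 of 6), Lypd6b (0.70, adjusted p = 0.00784, 6 of 6) and Vsnl1 (0.54, adjusted p = 2.05e-05, 6 of 6). Ly6h was lower (-0.30, adjusted p = 0.00817, 6 of 6).

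**Figure D5:**
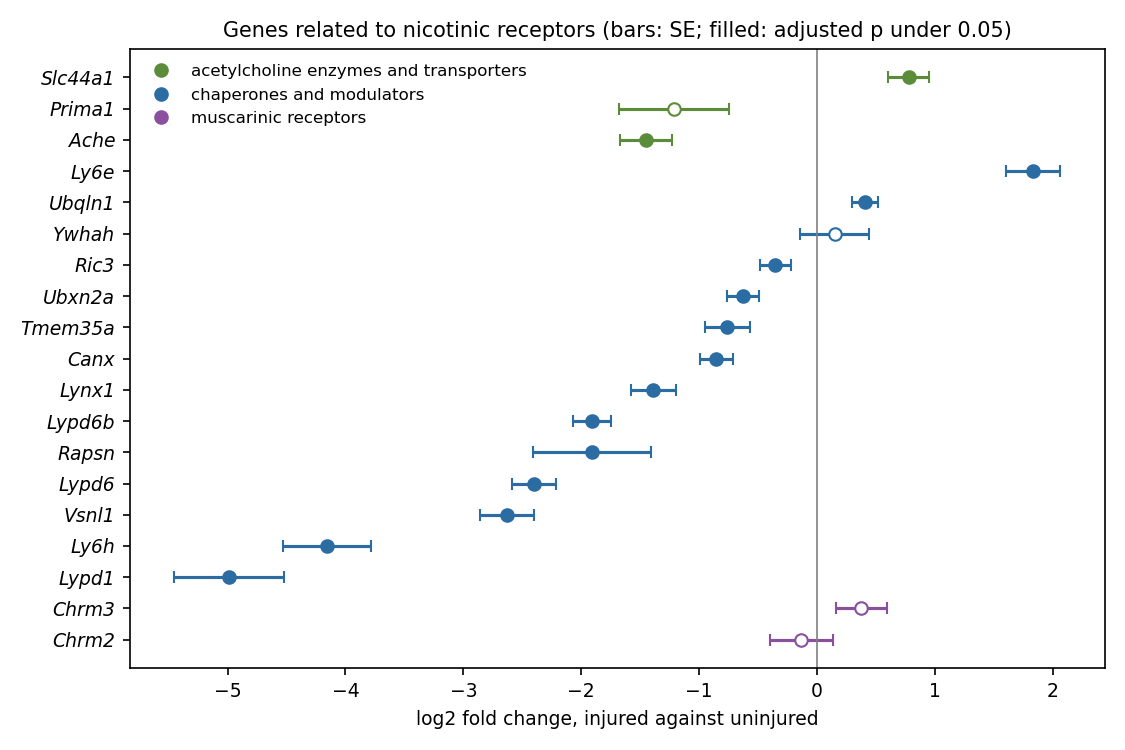
Log2 fold change after injury of the 19 tested genes related to nicotinic receptors, with SE bars, over 6 uninjured and 3 injured samples; colours give the list and filled points have an adjusted p under 0.05. Of these genes, 12 are lower and 3 higher, from Lypd1 at -4.99 to Ly6e at 1.83.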

How the data were processed

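Single-cell libraries of immunopanned RGCs were processed by the authors with Cell Ranger 7.0.1 against mm39, and the deposited files hold UMI counts per gene and cell. The study's methods and the sample descriptions differ on the kit, the sequencer, the Cell Ranger version and whether amacrine cells were depleted with macrophages, and the descriptions were followed. All deposited cells were used. No doublet caller was run, and cells with 3 or more markers of another retinal class were left out as an alternative. Members and lists were chosen with earlier results of these data known.

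UMI counts were summed per library, and injured 3 and 4 were averaged with rounding. Genes passing filterByExpr were tested with the quasi-likelihood test of edgeR 4.0.16 in R 4.3.3, with TMM factors and Benjamini-Hochberg adjustment over all genes at a threshold of 0.05. Contrasts within a condition used sums of cells thinned to 8000 UMIs, with at least 10 cells per sum and library as a block, and the 9 subtype markers were adjusted together. Standard errors were derived from the log2 fold change and the quasi-likelihood F. Shares, correlations and figures were made in Python 3.11.15 with pandas 2.3.3, numpy 2.4.6, scipy 1.17.1 and matplotlib 3.10.9. The injury test and the test of positive against negative sums with a library block were tried on simulated counts. The interaction of Chrnb3 status with condition was not. Gene positions and canonical transcript starts are those of the GENCODE vM39 annotation, and the promoter sequence was read from the GRCm39 genome at that start. Some markers and sequences examined are not reported here.

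Genes named are the 8 subunit genes, all genes of the 4 related lists past the threshold, the 10 largest and 5 smallest log2 fold changes of the Chrna6 contrast among called genes whose mean log2 CPM was 4 or more, the 10 genes most like Chrna6, and the subunit genes called in each marker class. Alternatives were DESeq2 1.42.0, other scaling, low-count filters, thinning to 5000 UMIs or none, other cell filters, at least 2 UMIs for a positive cell, no library block, a replicate block, and each library left out. Those that leave out pairs of injured libraries, sum similar libraries, or use Chrnb3 were chosen after seeing the data. The interaction of Chrna6 status with condition could not be fitted, since fewer than 10 thinned cells of each injured library held a Chrna6 UMI.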

Additional observations from a re-analysis of the deposited data

Results flagged for a closer look

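Among 31 groups of 6 uninjured libraries checked for a library far from the others, 2 held one, while chance gives about 1 in 20 groups. The share of thinned cells with Chrna4 was 0% in uninjured 1 (0 of 95 cells, exact binomial upper bound 3.81%) and 7.14% or more in the others, a gap of 0.794 of the whole range. With all UMIs, 11 cells of uninjured 1 held Chrna4. The share of thinned cells with Chrnb4 was 1.05% in uninjured 1, from 1 cell, and at most 0.311% in the others, a gap of 0.705 of the range.

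The difference between Chrnb3-positive and Chrnb3-negative cells itself differed between injured and uninjured samples for 183 genes by the interaction test (266 at 5000 UMIs per cell).

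Outside the subunit genes, mCherry reached 2153 CPM in injured 3 and Xist 691.7 CPM in injured 2, against 0 and at most 0.176 CPM in uninjured libraries. Their part in the injury values was not tested beyond leaving out the libraries concerned.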

How the results depend on the processing

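The injury fold changes of Chrna6 and Chrnb3 kept their sign under every alternative run. Chrna6 was at -6.67, from -7.27 (without injured 1) to -6.61 (without injured 2) with each library left out in turn and -7.71 without injured 1 and 2. Chrnb3 was at -4.42, from -4.54 to -4.35 with each library left out, -4.80 without injured 1 and 2, and -4.81 in cells without 3 markers of another class. Leaving out injured 1 and 2 took the genes called after injury from 6237 to 3109 and the related genes from 12 to 7 lower and from 3 to 1 higher, with 1 injured sample left that is assumed to vary like the others. With alike libraries summed as 5 batches 4191 genes were called, Chrna6 was at -6.75 and Chrnb3 at -4.51. In the Chrna6 contrast the 313 genes called became 172 with DESeq2, 15 with no library block, 149 at 5000 UMIs and 1291 with no thinning, and 173 to 421 with each library left out. Its subunit genes higher went from 2 to 1 with DESeq2, with positive cells taken from 2 UMIs and in cells without 3 markers of another class, to 0 with no block (unadjusted calls were not counted), and to 1 to 2 with each library left out. Marker pairs higher went from 7 to 2 with no block, 2 at 5000 UMIs, 4 in cells without other markers and 4 to 7 with each library left out. Pairs lower went from 7 to 15 with no thinning, 4 with positive cells taken from 2 UMIs, 3 at 5000 UMIs, 3 in cells without other markers and 4 to 8 with each library left out. The uninjured Chrna6 share went from 69.5% to 83.8% with no thinning and 55.8% at 5000 UMIs, and the Chrnb3 contrast in uninjured cells from 555 to 284 genes at 5000 UMIs. Thinning changes depth by construction. For the other changes the cause was not tested. Single genes kept their direction under all alternatives run, with 22 related-gene, 22 Chrna6-contrast and 30 marker-pair values no longer past the threshold and 337, 195 and 118 unchanged in call. For libraries 1 to 4 of each condition, a fit with the replicate number as a block called 8307 genes and one without it 8230, both counting injured 3 and 4 as 2 samples although they share cells, so these counts may be too high. Same-numbered libraries had correlations of -0.09, 0.03, -0.05 and -0.09, inside the range of -0.16 to 0.21 of differently numbered ones. Since some libraries of a condition are alike or share cells, these values cannot decide whether same-numbered libraries share a batch. The interaction of Chrna6 status with condition was not run at 8000 or 5000 UMIs or without injured 3 and 4, and Spp1 could not be fitted at 8000 UMIs. Chrna5 and Chrnb4 in all libraries, and Chrna6 and Chrna4 after injury, rest on at most 19 UMIs per library.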

Other observations

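The 19, 8, 10 and 4 Chrna6 UMIs left in injured libraries 1 to 4 lay in 13, 6, 9 and 3 cells. In injured 1 the cell with the most held 5 of 19 UMIs, in injured 2 it held 3 of 8, in injured 3 it held 2 of 10 and in injured 4 it held 2 of 4. In injured 1 this cell was mCherry-positive. Chrnb3 was at 5.29, 9.66, 8.40 and 5.07 CPM in mCherry-positive cells of injured 1 to 4 and at 11.4, 12.1, 15.9 and 9.29 CPM in mCherry-negative cells, lower in the positive cells of each library. Chrna6 was at 8.81, 2.76, 1.15 and 0.543 CPM in mCherry-positive and 2.61, 1.51, 0.995 and 1.33 CPM in mCherry-negative cells, higher in the positive cells of injured 1 to 3 and lower in those of injured 4, from 1 to 14 UMIs each. In the Chrnb3 contrast of injured cells mCherry was lower in Chrnb3-positive cells (log2 fold change -0.86, SE 0.22, adjusted p = 0.0323, lower in 3 of 3 samples).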
